A study of Arabidopsis thaliana with 24 samples.

Results

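Messenger RNA levels were compared between seedlings of the exa1-1 mutant line and wild type after both had been exposed to salt. The members were the 3 exa1-1 and the 3 wild-type libraries whose count columns are labelled for NaCl, 6 of the 24 libraries in the series, and the genotype difference was described over 21462 expressed genes of the 32833 in the count table. All libraries came from whole Arabidopsis thaliana seedlings aged 9 days. They were raised on 1/2 MS, diluted Murashige and Skoog salts, with sucrose. The wild-type accession was Col-0, and the mutant is given by the name exa1-1 alone. Both groups compared were exposed to 200 mM NaCl for 60 min, and the same genotypes on 1/2 MS without added salt, also 3 libraries each, served as the unstressed reference. The remaining libraries, of both genotypes at 23 °C or 39 °C, were used only to set values beside those of the salt comparison. RNA was extracted from about 50 mg of seedlings per sample, so each library pools several plants. The replicates are described as independent and biological.

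The product of EXA1 (AT5G42950) carries a GYF domain, a fold known to dock onto proline-rich stretches of other proteins. The gene is known as one that potexviruses need in order to multiply in the plant, and its product has been described as a repressor of the translation of NLR immune receptors. High salt acts on seedlings as osmotic stress and as ion toxicity. Plants answer it through abscisic acid (ABA), a hormone whose signal releases SnRK2 kinases from PP2C phosphatases, and through DREB factors that act without the hormone. Both arms switch on genes for dehydrins and other protective proteins. Photosynthesis genes and immune genes are regulated by many of the same hormones.

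The 6 NaCl libraries held 19588199 to 20971827 counts each. Across genes, the log2 levels of replicate libraries had correlations of 0.997 to 0.999, and the chi-square statistic per gene between replicates ranged from 1.62 to 6.66, so no pair agreed within sampling noise. The widest gap was between wild-type replicates 1 and 2, and replicate 1 of the wild type also had the highest level in many of the salt-induced and photosynthesis genes below. Values below are CPM, counts scaled to a common library size with TMM factors, and a gene is called where edgeR's quasi-likelihood test gave a Benjamini-Hochberg adjusted p under 0.05.

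The mutated gene checked the labels. EXA1 (chr5:17224270-17231384, plus strand, TAIR10.1) stood at 166, 166 and 168 CPM in wild type under NaCl and at 47.4, 44.8 and 47.0 CPM in exa1-1. Each exa1-1 library lay at about 28% of the wild-type level and the groups were far apart (log2 difference -1.84 ± 0.03, SE, n = 3 against 3, edgeR adjusted p = 7.94e-16). Without salt, on 1/2 MS, the log2 difference was -1.79. The GYF-domain homologues AT1G24300 and AT1G27430 were not called, with log2 differences of -0.06 and -0.04. Of the genes next to EXA1, AT5G42940 and AT5G42960 were not called, at -0.10 and 0.09. AT5G42930 was called lower at -0.33, but not without wild-type replicate 1 (-0.24, adjusted p = 0.0804). Within 500 kb on either side of EXA1, 205 genes were tested and 36.1% were called, 47 higher and 27 lower. Over all genes tested 29.5% were called. In the window 8 of the 205 genes were called with a log2 difference of at least 1 in size, where 2.32% of all genes were.

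Under NaCl, 6321 of the 21462 genes tested differed between the genotypes (29.5%). Of these, 3406 were higher in exa1-1 (15.9%) and 2915 were lower (13.6%). Most differences were small. The median absolute log2 difference of the called genes was 0.337, and 71.2% of them, 4502 genes, differed by less than 0.5. Only 497 genes (2.32%) had a log2 difference of 1 or more in size, 136 higher (0.634%) and 361 lower (1.68%), so the larger differences were mostly decreases. The split of all calls was not the same in every fit. Of the calls 53.9% were higher here, and 52.3% to 53.4% were with other scalings, with DESeq2, with log2(FPKM + 1) or with the replicate block. The share was 45.7% to 46.4% with another filter on low counts or with the NaCl libraries alone, and 44.7% to 46.6% with 1 library left out, except for wild-type replicates 1 and 2 under NaCl (53.1% and 53.3%). In the fits with 46.6% or less the median log2 difference of all genes was about 0, against 0.02 here. For 9156 genes (42.7%), called or not, the 3 exa1-1 libraries did not overlap the 3 wild-type ones. The share called grew with expression, from 9.49% of genes under 0 log2 CPM to 60.2% of those at 8 or more. At 6 to 8 log2 CPM, 947 of 3415 genes were called higher and 556 lower. The counts of the lists below are set beside the share of all genes, not of genes at a like level. For lists of well-expressed genes that share is therefore a low mark.

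**Figure D1:**
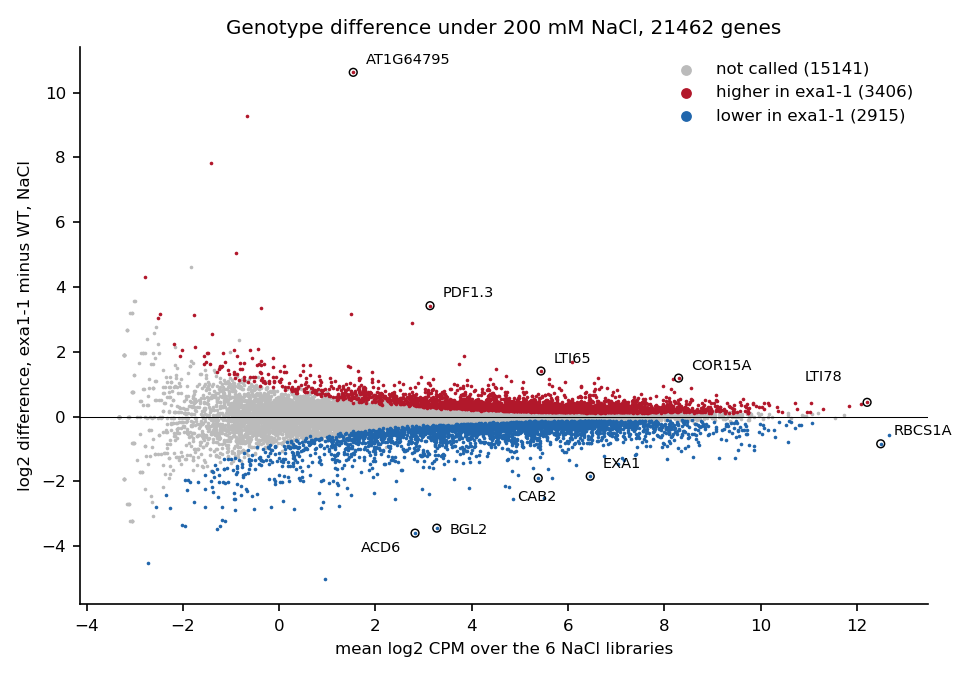
Log2 difference between exa1-1 and wild type under NaCl (vertical axis) against the mean log2 CPM over the 6 NaCl libraries (horizontal axis). Each point is 1 gene, red where called higher in exa1-1 (3406), blue where called lower (2915) and grey where not called, and circled genes are named in the text. Most called genes lie within 0.5 of 0, and among the larger differences the blue points outnumber the red.

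Nuclear genes of photosynthesis fell together in the mutant. Of 55 genes in 3 lists (antenna proteins, nuclear-encoded photosystem subunits and Calvin cycle enzymes with Rubisco activase), 51 were called lower and 0 higher, where 13.6% of all genes were called lower. The median log2 difference of the 55 genes was -0.59, against 0.02 for all genes tested. Their summed level was 48922, 40855 and 43151 CPM in wild type and 29499, 27712 and 28412 CPM in exa1-1. Every exa1-1 library lay below every wild-type library, and the mean was 35.6% lower (44309 ± 4156 against 28541 ± 901 CPM, SD, n = 3 each). The same sum without salt was 26158 ± 1061 in wild type and 21407 ± 731 CPM in exa1-1. There 38 of the 55 genes were called lower, where 10.1% of all genes were, and the median was -0.26. In 39 of the 55 genes the genotype difference under NaCl was more negative than that on 1/2 MS by the interaction test, where 5.16% of all genes had such a call. Salt raised 49 of the 55 genes in wild type and 40 in exa1-1. The share of all genes raised by salt was not counted, so these counts cannot be judged against it. These are bulk samples of whole seedlings, in which fewer cells of a type and less RNA per cell cannot be told apart.

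The Calvin cycle list was lower throughout, with 10 of 10 genes called and a median log2 difference of -0.90. RBCS1A (AT1G67090), the most abundant small subunit gene of Rubisco, the enzyme that fixes carbon dioxide, was at 8138, 7374 and 7634 CPM in wild type and at 4445, 4225 and 4242 CPM in exa1-1. The groups did not overlap (log2 difference -0.84 ± 0.05, SE, edgeR adjusted p = 3.36e-10). The difference on 1/2 MS was -0.26 and the interaction passed, while at 23 °C and 39 °C the differences of -0.24 and -0.28 did not pass. The other small subunit genes differed by -1.89 (RBCS1B), -1.35 (RBCS2B) and -0.92 (RBCS3B). These copies are near-identical, so the split of reads between them is uncertain. RCA, which encodes the activase that frees blocked Rubisco sites, fell from a mean of 1339 ± 47.9 to 652 ± 39.4 CPM (SD, n = 3 each), a log2 difference of -1.04. PRK, which regenerates the carbon dioxide acceptor, differed by -1.28, and GAPA, a subunit of the chloroplast glyceraldehyde phosphate dehydrogenase, by -0.87. The next genes lie outside the list and were named because they had some of the largest decreases or losses in CPM in these data. CP12-2, a small protein that ties PRK and GAPA into an inactive complex in the dark, was at 67.4, 46.6 and 49.5 CPM against 11.3, 12.3 and 13.3 CPM. Its wild-type libraries lay far above the mutant ones (log2 difference -2.14 ± 0.18). The carbonic anhydrase genes CA1 and CA2 differed by -1.04 and -1.28. CA2 was as low on 1/2 MS (-1.39), without an interaction. GLU1, a ferredoxin-dependent glutamate synthase of photorespiration, went from 1601, 1540 and 1552 to 1022, 1020 and 1003 CPM (-0.62).

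Among the chlorophyll-binding antenna proteins, 18 of 21 genes were called lower, with a median of -0.62. LHCB2.2, LHCB2.3 and AT1G76570 were not called. CAB2 (AT1G29920), a light-harvesting protein of photosystem II, was at 86.0, 78.9 and 76.4 CPM in wild type and at 22.4, 23.2 and 19.0 CPM in exa1-1. All mutant libraries were far below the wild-type level (log2 difference -1.90 ± 0.10, SE, adjusted p = 7.79e-13), against -0.53 on 1/2 MS. It was also lower at 23 °C and at 39 °C, by -1.33 and -1.04. CAB1 and CAB3, its neighbours on chromosome 1, differed by -0.57 and -1.24, and since the coding regions of these copies are near-identical, the share of reads given to each is uncertain. LHB1B2 differed by -1.28, LHCB3 by -1.21 and LHCB4.3 by -1.45. Of the photosystem core list, 23 of 24 genes were called lower, with a median of -0.55, and PSBP-2 was not called. NPQ4, which senses low lumen pH and triggers heat dissipation of absorbed light, differed by -0.91, and PSBX and PSBR, small subunits of photosystem II, by -0.90 and -0.78. NdhM, a subunit of the chloroplast NDH complex of cyclic electron flow, is on none of the lists and was named for its large decrease. It was at 13.3, 11.8 and 12.3 CPM against 2.07, 2.44 and 1.87 CPM (-2.55 ± 0.12). Genes encoded in the chloroplast itself mostly lay below the filter or were not called. Of 41 tested, 1 was higher (2.44%) and 3 were lower (7.32%), beside 15.9% and 13.6% of all genes.

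**Figure D2:**
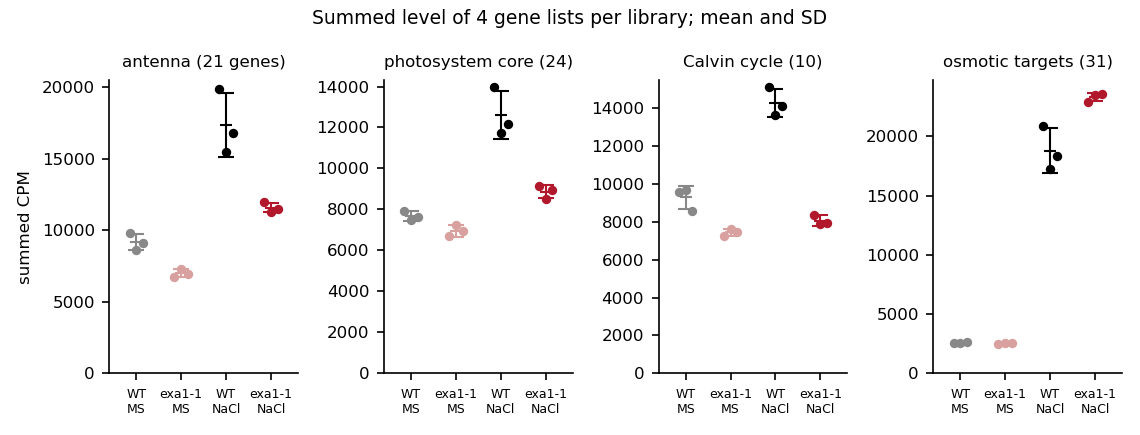
Summed CPM of 4 gene lists in each of the 12 libraries of the salt series (points), with the group mean and SD. From left to right within a panel stand wild type and exa1-1 on 1/2 MS, then wild type and exa1-1 under NaCl. The 3 photosynthesis lists are lower in exa1-1 under NaCl than in wild type, and the osmotic targets are higher.

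Markers of organs were read beside this decrease. The shoot markers that are not photosynthesis genes (STM, AS1, FMA and SPCH, regulators of the shoot meristem, leaf and stomata) summed to 136, 137 and 141 CPM in wild type and 146, 138 and 136 CPM in exa1-1, and none was called. The sum of 8 root markers was 1163, 1163 and 1138 CPM against 1432, 1387 and 1427 CPM, a mean of 1154 ± 14.5 against 1415 ± 24.5 CPM (SD, n = 3 each). PYK10, a glucosidase of root endoplasmic reticulum bodies, made up most of that sum, with 1021 ± 12.5 against 1293 ± 30.2 CPM. PYK10, CASP1 and WOX5 were called higher and PHO1 and TIP2_3 lower. CASP1 was not called without exa1-1 replicate 2 (0.32, adjusted p = 0.0614), and PHO1 was not called without wild-type replicate 2 (-0.23, adjusted p = 0.0748). Without salt the root markers summed to 2538 ± 174 and 2591 ± 137 CPM, with no difference beyond the spread. Seed markers were close to 0: 2 of 8 passed the filter, and CRA1, a seed storage globulin, was at 0.109, 0 and 0.102 CPM against 5.22, 0.448 and 1.82 CPM. Whether the proportion of organs contributes to the differences was not tested.

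Most targets of the osmotic response were higher in the mutant. Of 31 genes tested, 19 were called higher, where 15.9% of all genes were, and 2 were lower (P5CS1, a proline synthesis enzyme, and DREB2A, a drought-response factor). The median log2 difference was 0.26. Together they summed to 20880, 17245 and 18316 CPM in wild type and 22947, 23518 and 23595 CPM in exa1-1, with no overlap (18814 ± 1868 against 23353 ± 354 CPM, SD, n = 3 each). Without salt the sums were 2601 ± 49.7 and 2510 ± 55.1 CPM, the median was -0.16, and 6 genes were called higher and 7 lower, where 8.14% of all genes were higher. For 11 of the 31 genes the interaction was called in the positive direction, against 6.02% of all genes.

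The promoters of 3 of these genes are shown, because DNA elements of the salt response lie in them. Only the LTI65 window held both an ABA-responsive and a dehydration-responsive element. LTI78 had the largest gain in CPM among the 31 genes, and LTI65 and COR15A the largest log2 differences. LTI78 (also known as RD29A) and LTI65 (RD29B) are neighbouring genes on chromosome 5 for hydrophilic stress proteins, and COR15A encodes a chloroplast protein that protects membranes in the cold. The sequences are the 250 bases before each gene start in RefSeq's TAIR10.1, 5′ to 3′ on the gene's strand. Capitals mark the ABA-responsive element (ABRE, ACGTGNC) and the dehydration-responsive core (DRE, NCCGAC), searched on both strands, and in COR15A the DRE core and the G-box (CACGTG). The windows are chr5:21236771-21237020 (plus strand) for LTI65, chr5:21240467-21240716 (plus) for LTI78 and chr2:17712331-17712580 (minus) for COR15A.
LTI65: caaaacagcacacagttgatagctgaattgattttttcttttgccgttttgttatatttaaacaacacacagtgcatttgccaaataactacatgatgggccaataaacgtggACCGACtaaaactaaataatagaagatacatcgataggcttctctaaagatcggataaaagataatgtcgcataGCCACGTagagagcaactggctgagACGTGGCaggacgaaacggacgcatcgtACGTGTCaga
LTI78: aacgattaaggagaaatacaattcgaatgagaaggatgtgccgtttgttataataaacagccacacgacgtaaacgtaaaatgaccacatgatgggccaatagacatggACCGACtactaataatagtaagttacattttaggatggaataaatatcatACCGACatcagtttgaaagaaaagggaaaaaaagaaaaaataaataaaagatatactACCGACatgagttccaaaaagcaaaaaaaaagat
COR15A: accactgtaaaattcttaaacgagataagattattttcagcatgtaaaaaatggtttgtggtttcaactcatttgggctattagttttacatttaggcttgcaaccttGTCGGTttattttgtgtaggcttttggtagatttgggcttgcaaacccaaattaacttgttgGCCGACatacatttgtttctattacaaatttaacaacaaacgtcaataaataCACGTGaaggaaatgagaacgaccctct
The LTI65 window held 3 ABREs, starting 63, 38 and 10 bases before the gene start, and 1 DRE core at 137. LTI78 held 3 DRE cores, at 141, 91 and 34, and COR15A held 2 DRE cores, at 142 and 80, and a G-box at 28. A DRE core was found in 38.7% of the 31 osmotic targets and in 12.7% of the 21407 tested genes with a promoter sequence. An ABRE was found in 32.3% and 9.49% of them, and also in 30.9% of the 55 photosynthesis genes, whose level changed the other way. An ABRE may overlap a G-box, and a match describes letters, not binding.

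LTI65 was at 35.5, 19.3 and 26.3 CPM in wild type and at 62.8, 77.6 and 73.7 CPM in exa1-1. The lowest mutant library lay well above the highest wild-type one (log2 difference 1.4 ± 0.27, SE, adjusted p = 1.36e-07). COR15A was at 242, 185 and 200 CPM against 498, 448 and 480 CPM (1.19 ± 0.12, adjusted p = 1.97e-08), and on 1/2 MS it was already higher by 1.78. LTI78, among the most abundant of these messages, was at 4441, 3750 and 4028 CPM against 5246, 5614 and 5694 CPM (0.44 ± 0.08). At 39 °C its difference was negative, at -0.75. The dehydrin genes COR47 and ERD10 differed by 0.34 and 0.41 under NaCl, and their differences on 1/2 MS were -0.15 and -0.24, with an interaction in both. LEA14 differed by 0.49 and RD22, an ABA-responsive gene, by 0.41, with similar values on 1/2 MS (0.38 and 0.47). P5CS2, the housekeeping copy of the rate-limiting enzyme of proline synthesis, was higher by 0.39 while P5CS1, the stress-induced copy, was lower. ProT3, a proline transporter, was at 1.47, 2.16 and 2.5 CPM against 4.65, 4.03 and 5.30 CPM (1.18).

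**Figure D3:**
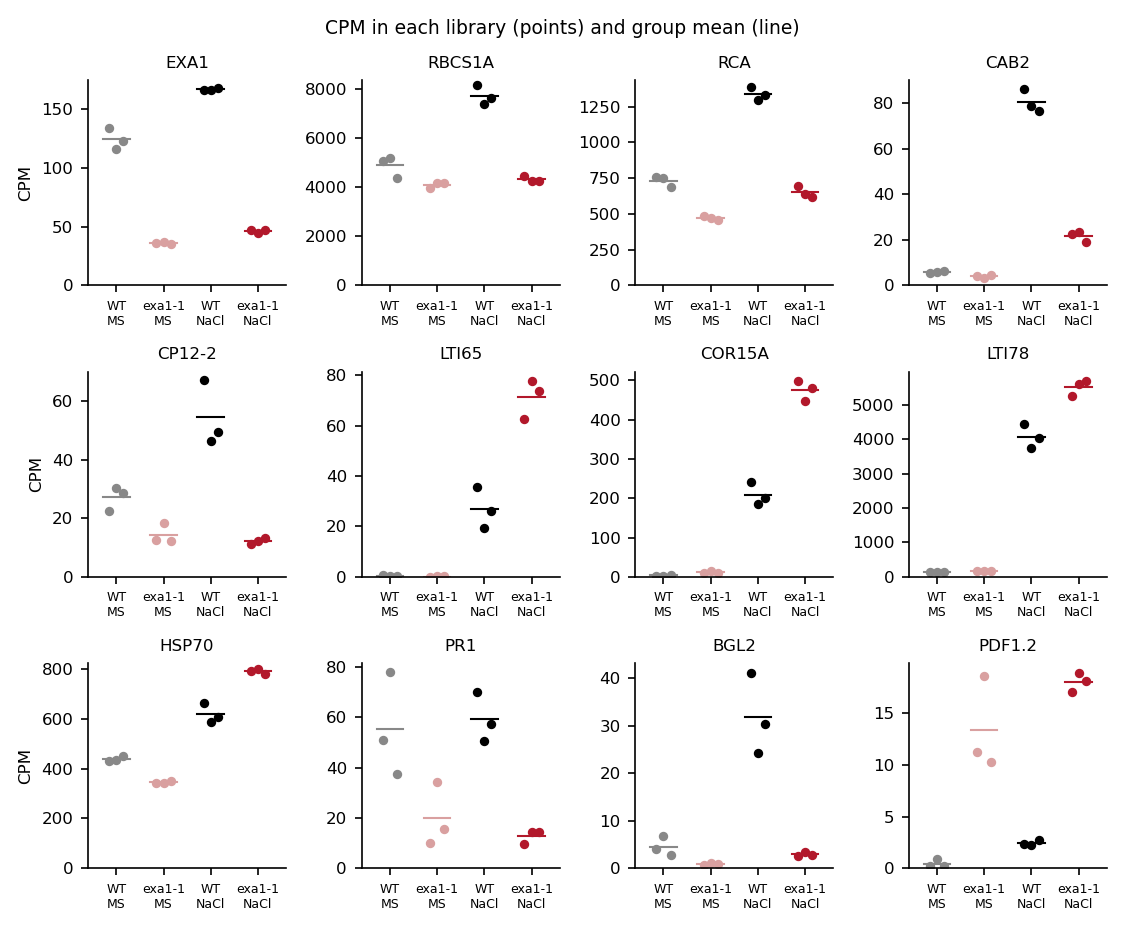
CPM of 12 genes in each library of the salt series (points), with the group mean as a line and a vertical axis from 0 in each panel. EXA1, RBCS1A, RCA, CAB2, CP12-2, PR1 and BGL2 are lower in exa1-1 under NaCl. LTI65, COR15A, LTI78, HSP70 and PDF1.2 are higher, and for LTI65 and LTI78 the levels on 1/2 MS are near the foot of the panel.

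ABA metabolism and signalling were less uniform. Of 32 genes tested, 9 were called higher (28.1%, against 15.9% of all genes) and 4 lower (12.5%, near the 13.6% of all genes). The higher count was 5 without wild-type replicate 2 or exa1-1 replicate 2 or 3 and 4 without wild-type replicate 3. The lower count was 2 without exa1-1 replicate 1. NCED3, which makes the first committed precursor of ABA, had a mean of 56.4 ± 5.9 CPM in wild type against 79.0 ± 4.09 CPM in exa1-1 (SD, n = 3 each, log2 difference 0.49 ± 0.10), whereas on 1/2 MS it was lower in exa1-1 by -1.16. CYP707A1, an ABA-degrading hydroxylase, differed by 0.54 against -0.46 on 1/2 MS, and the PP2C phosphatase gene ABI1 by 0.24 against -0.50. In these 3 genes the direction turned with salt and the interaction passed. RCAR3, an ABA receptor, was lower (-0.36). Of 14 ion transport genes 4 were higher (28.6%, against 15.9% of all genes) and 2 lower (14.3%, near the 13.6% of all genes). NHX1, a vacuolar sodium/proton exchanger, differed by 0.37, the outward potassium channel GORK by 0.48, and the plasma membrane proton pump gene HA1 by -0.25. The higher count was 2 without wild-type replicate 3 or exa1-1 replicate 1 or 2, and the lower count was 4 without wild-type replicate 1.

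Aquaporins are the water channels of the plasma membrane (PIP) and tonoplast (TIP). Of 13 PIP genes 7 were higher (53.8%) and 2 lower, and of 6 TIP genes tested 3 were higher and 1 lower, beside 15.9% higher and 13.6% lower over all genes. The lower PIP count was 1 without wild-type replicate 2 or 3 or exa1-1 replicate 2, and the lower TIP count was 0 without replicate 1 of either genotype. GAMMA-TIP was at 488, 426 and 444 CPM against 620, 654 and 660 CPM (0.51 ± 0.06). TIP2_2 was at 113, 81.6 and 91.6 CPM against 154, 159 and 165 CPM (0.74 ± 0.14). Both lay lower in exa1-1 on 1/2 MS, by -0.28 and -0.58. PIP1A and PIP1_4 differed by 0.44 and 0.46, against -0.34 and -0.05 without salt.

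Among protein-folding genes more were called higher than lower, with small differences. Of 23 cytosolic chaperones and helpers, 11 were called higher (47.8%, against 15.9% of all genes) and 0 lower, with a median of 0.15. On unsalted medium 1 was higher and 9 were lower, where 8.14% and 10.1% of all genes were. HSP70 (AT3G12580), a heat-inducible cytosolic chaperone, was at 664, 588 and 607 CPM against 792, 800 and 780 CPM (0.35 ± 0.05), and its difference on 1/2 MS was -0.35. Hop3, which links the HSP70 and HSP90 machines, differed by 0.52 against -0.19. In the endoplasmic reticulum, 12 of 24 folding and unfolded-protein-response genes were higher (50.0%) and 2 lower (BIP3 and CRT3, 8.33%), and the lower count was 1 without wild-type replicate 1 or 3 or exa1-1 replicate 2 or 3. BIP1, the lumenal HSP70, was at 252, 264 and 258 CPM against 344, 345 and 343 CPM. The mutant libraries were within 2 CPM of each other and above all wild-type ones (0.42 ± 0.02, adjusted p = 7.92e-08). BIP2 differed by 0.37 and CRT1a, a calreticulin, by 0.40. The small heat shock proteins and the heat shock factors did not share this direction. Of 13 small heat shock proteins 2 were higher and 5 lower (3 without wild-type replicate 1), among them AT1G52560 at 1.16 and AT5G51440, a mitochondrial member, at -0.53. Of 19 heat shock factors 1 was higher (5.26%) and 5 were lower (26.3%), and the lower count was 3 without wild-type replicate 2. HSFA2, a heat-inducible activator, differed by -0.47.

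Salicylic acid (SA) is the hormone of systemic immunity to biotrophic pathogens, and no gene of its list was called higher. Of 19 tested genes of SA and pipecolic acid synthesis and signalling, 9 were lower (47.4%, against 13.6% of all genes) and 10 were not called. With wild-type replicate 2 left out 1 was higher. Of 16 defence output genes, 10 were lower (62.5%) and 2 higher (AZI1 and SAG101, 12.5%, near the 15.9% of all genes). On 1/2 MS 12 of the 19 and 8 of the 16 genes were called lower, where 10.1% of all genes were. The list medians were -0.49 and -0.43 under NaCl and -0.56 and -0.52 on 1/2 MS. The interaction with salt went both ways in these lists, with 3 genes positive and 2 negative in the first and 5 positive and 3 negative in the second. ACD6, an ankyrin protein that promotes SA signalling, was at 21.9, 28.1 and 23.7 CPM in wild type and at 1.65, 2.89 and 1.51 CPM in exa1-1. The decrease of -3.60 ± 0.30 (SE, adjusted p = 7.27e-07) was larger than that on 1/2 MS (-1.04), and the interaction passed. On 1/2 MS the ACD6 levels of the genotypes overlapped, at 30.3, 50.9 and 30.8 CPM in wild type and 9.14, 31.1 and 13.5 CPM in exa1-1. BGL2 (also known as PR2), a secreted glucanase, was at 41.2, 24.2 and 30.3 CPM against 2.53, 3.44 and 2.78 CPM (-3.45 ± 0.26). PR1, the common marker of the SA response, was at 70.0, 50.4 and 57.2 CPM against 9.66, 14.6 and 14.6 CPM (-2.19 ± 0.24). On 1/2 MS BGL2 and PR1 were also called lower, by -2.24 and -1.45, without an interaction. PR1 was not called at 23 °C or 39 °C (0.57 and -0.35), and BGL2 was called at 39 °C (-3.78) but not at 23 °C (0.57).

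Several regulators of that response were also lower. SARD1, a factor that activates SA synthesis genes, was at 23.8, 22.6 and 25.0 CPM against 9.30, 10.7 and 9.39 CPM (-1.28 ± 0.08), and on 1/2 MS the difference was -0.17. Its relative CBP60G differed by -0.65 under NaCl and -0.80 on 1/2 MS. FMO1, which makes N-hydroxypipecolic acid, the mobile signal of systemic resistance, differed by -2.38, and WRKY70 and WRKY38, SA-induced factors, by -1.13 and -2.04. PNP-A, LURP1 and ECS1, defence-associated genes, were lower by -2.43, -2.35 and -2.54. Of 24 NLR receptor genes tested, 12 were lower (50.0%) and 2 higher (8.33%). The higher count was 0 with DESeq2, under either other filter, with FPKM, within the NaCl libraries alone and without most single libraries. RPP8, a receptor for downy mildew effectors, was at 83.6, 78.1 and 80.9 CPM against 48.8, 44.8 and 43.8 CPM (-0.82 ± 0.05, adjusted p = 4.54e-10). SNC1, a receptor known from an autoimmune mutant, differed by -0.70, from 86.0 ± 1.64 to 53.0 ± 3.21 CPM (SD, n = 3 each). NLR genes stand in clusters of similar copies, so reads may have been shared among them. Of 63 WRKY factors 18 were lower (28.6%) and 7 higher (11.1%), the latter 3 or 4 without any 1 of the exa1-1 libraries.

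**Figure D4:**
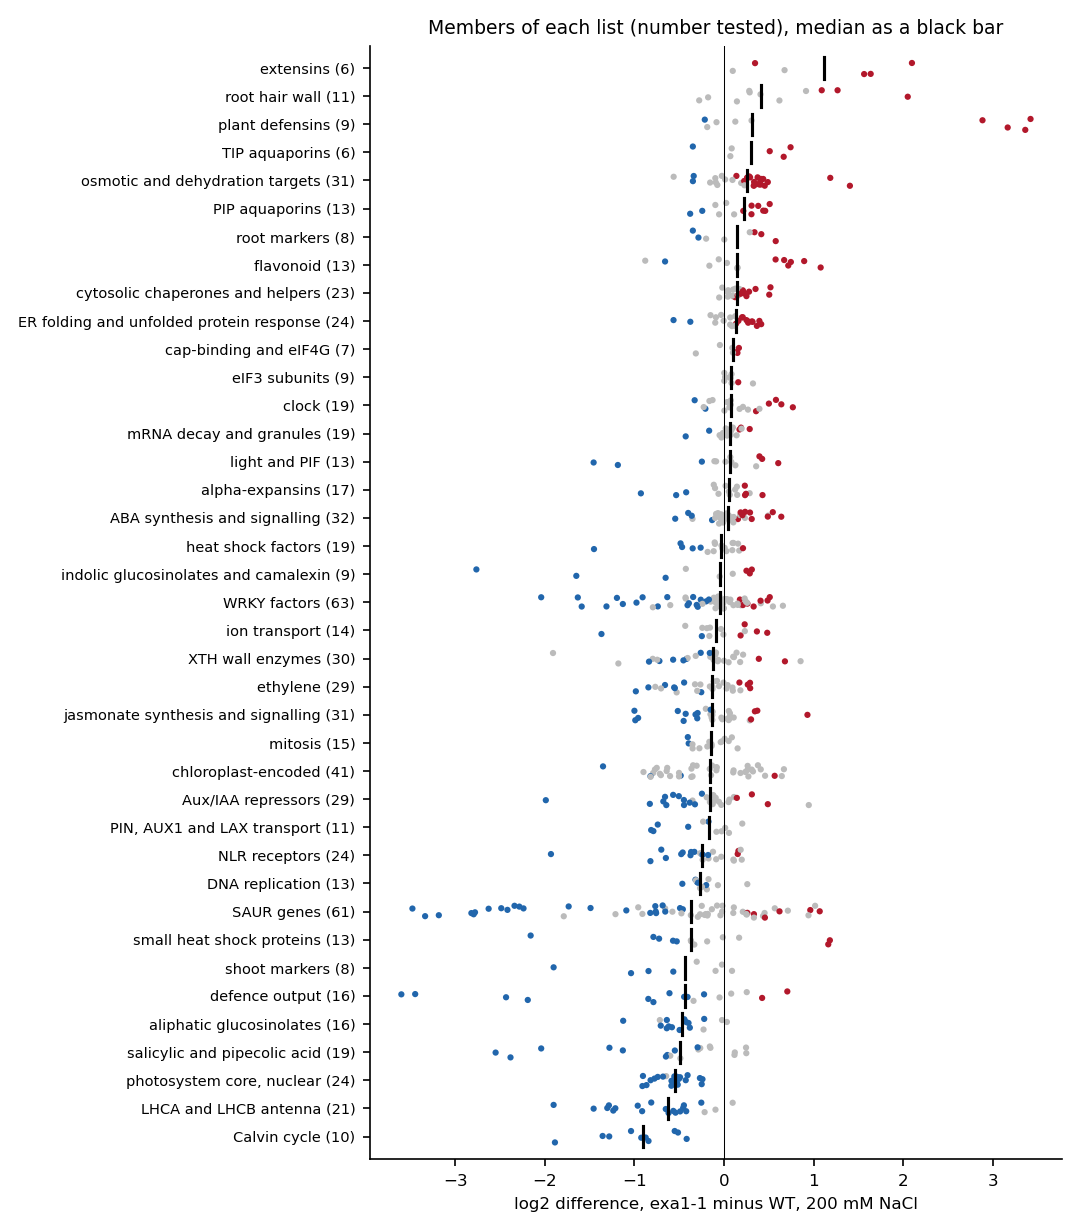
Log2 difference between exa1-1 and wild type under NaCl (horizontal axis) for each tested member of the gene lists, with the number tested in brackets. Points are genes, red where called higher, blue where called lower and grey where not called, and a black bar marks the list's median. The photosynthesis lists lie to the left, with medians from -0.90 to -0.55, and the osmotic targets have a median of 0.26.

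Camalexin, an indole phytoalexin, and glucosinolates, the sulphur-containing defence compounds of the cabbage family, were covered by 2 lists of 9 and 16 genes. Of the 9 genes for indolic glucosinolates and camalexin 3 were higher (CYP79B2, CYP83B1 and the factor MYB34, which act in indolic glucosinolate synthesis) and 3 lower (CYP71A13, CYP71A12 and PAD3, which act in camalexin synthesis). That is 33.3% each way, beside 15.9% and 13.6% of all genes. The list summed to 723 ± 4.85 CPM in wild type and 796 ± 11.9 CPM in exa1-1 (SD, n = 3 each). CYP71A13, which makes the nitrile precursor of camalexin, was at 3.42, 7.28 and 7.19 CPM against 0.826, 0.846 and 0.959 CPM (-2.76 ± 0.36). CYP71A12, its close copy, differed by -1.65. Both were similarly lower on 1/2 MS (-2.35 and -1.90). Of 16 genes for aliphatic glucosinolates, 12 were lower (75.0%) and 0 higher, with a median of -0.47 against -0.17 on 1/2 MS. MAM1, the chain-elongating enzyme of methionine, was at 201, 160 and 177 CPM against 119, 115 and 112 CPM (-0.64 ± 0.10). IPMI1, a subunit of the next enzyme, differed by -1.12, CYP83A1 by -0.64 and the controlling factor MYB28 by -0.62. In all 4 of these genes the difference on 1/2 MS lay between -0.25 and -0.09 and the interaction passed. TGG1, the myrosinase that breaks glucosinolates down, was instead higher, at 2396, 2245 and 2305 CPM against 2851, 2666 and 2695 CPM (0.24 ± 0.04).

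Plant defensins, small secreted antifungal peptides induced by jasmonate and ethylene together, were among the largest increases. The 4 called higher among 9 tested (44.4%, against 15.9% of all genes) were PDF1.2, PDF1.2b, PDF1.2c and PDF1.3. A further 1 was lower (11.1%, near the 13.6% of all genes). The lower count was 0 without wild-type replicate 1 or exa1-1 replicate 2 or 3. PDF1.2 (AT5G44420) was at 2.34, 2.21 and 2.75 CPM in wild type and at 17.0, 18.9 and 18.1 CPM in exa1-1, a log2 difference of 2.88 ± 0.10 (SE, adjusted p = 4.52e-09). PDF1.3 differed by 3.42, PDF1.2b by 3.36 and PDF1.2c by 3.17. The 4 genes are near-identical, so their values are not independent of how reads were shared. All were higher on 1/2 MS too, by 3.81 to 4.88, and for PDF1.2 and PDF1.3 the difference under NaCl was the smaller by the interaction test. On 1/2 MS the wild-type libraries together held only 28 counts of PDF1.2, 33 of PDF1.3, 12 of PDF1.2c and 4 of PDF1.2b. The size of the differences there is therefore uncertain. PDF1.2 was also higher at 23 °C and 39 °C, by 4.57 and 3.5. The PDF1.2 promoter is shown because ethylene response factors are known to bind the GCC box, and CAB2 is shown as a photosynthesis gene with an ABRE. Capitals mark the GCC box (GCCGCC, both strands) in chr5:17907639-17907888 (minus strand) and the ABRE in chr1:10475970-10476219 (minus), from RefSeq's TAIR10.1.
PDF1.2: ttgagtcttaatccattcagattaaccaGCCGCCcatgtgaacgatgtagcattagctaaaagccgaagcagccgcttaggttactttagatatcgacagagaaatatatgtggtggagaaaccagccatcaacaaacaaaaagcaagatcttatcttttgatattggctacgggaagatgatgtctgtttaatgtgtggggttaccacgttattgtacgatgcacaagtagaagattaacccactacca
CAB2: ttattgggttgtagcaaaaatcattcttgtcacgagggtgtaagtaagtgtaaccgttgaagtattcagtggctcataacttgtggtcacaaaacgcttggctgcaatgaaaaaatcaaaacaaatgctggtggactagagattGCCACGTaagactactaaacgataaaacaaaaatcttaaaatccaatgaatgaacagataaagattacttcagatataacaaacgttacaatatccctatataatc
The GCC box of PDF1.2 began 222 bases before the gene start, and 2.0% of the promoters of all tested genes held this element. The ABRE of CAB2 began 106 bases before the start.

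Jasmonate and ethylene genes did not follow the defensins. Of 31 jasmonate genes tested 4 were higher (12.9%) and 10 lower (32.3%), and of 29 ethylene genes 4 were higher (13.8%) and 7 lower (24.1%), beside 15.9% and 13.6% of all genes. The higher ethylene count was 2 without exa1-1 replicate 1 or 2. LOX2, a chloroplast lipoxygenase that starts jasmonate synthesis, was at 469, 407 and 423 CPM against 220, 225 and 224 CPM (-0.96 ± 0.06), whereas on 1/2 MS it was higher by 0.56. CYP94B3, which inactivates the active hormone jasmonoyl-isoleucine, went the other way, from 196, 174 and 174 to 354, 345 and 338 CPM (0.93 ± 0.06), against -1.28 on 1/2 MS. JAZ7, a repressor of the pathway, differed by -1.0. ERF2, an ethylene response factor, differed by -0.98 and ACS6, an ethylene synthesis enzyme, by -0.56.

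Single genes of polyamine and phenylpropanoid metabolism, for which no list was made, were higher as follows. ADC2, which makes agmatine from arginine, was at 3914, 3711 and 3729 CPM against 5055, 4893 and 4790 CPM (0.38 ± 0.03), against -0.46 on 1/2 MS. NATA1, which acetylates ornithine and related amines, was at 34.0, 32.0 and 32.0 CPM against 61.0, 83.0 and 74.9 CPM (1.16 ± 0.13), against -1.42. AACT1, an acyltransferase that joins coumaroyl groups to agmatine, went from 6.74, 7.64 and 8.36 to 26.7, 21.0 and 22.8 CPM (1.63 ± 0.13), against 0.75. All 3 genes had a positive interaction. CAD5, a lignin alcohol dehydrogenase, differed by 0.53 against -0.26 on 1/2 MS, and ATMS1, a methionine synthase, by 0.42 against 0.13. Of 13 flavonoid genes 6 were higher (46.2%) and 1 lower (MYB111, not called without replicate 2 or 3 of either genotype, which gives a count of 0). TT4, the chalcone synthase at the entry of the pathway, was at 45.0, 40.8 and 41.1 CPM against 97.4, 84.4 and 86.2 CPM (1.08 ± 0.08), and FLS1, a flavonol synthase, differed by 0.89. On 1/2 MS TT4 and FLS1 were also called higher, by 0.75 and 1.01, without an interaction. NIC3, a nicotinamidase, was higher by 1.24, against 0.38 on 1/2 MS. AT1G73600, which is no member of a list, was at 32.1, 42.9 and 39.2 CPM against 103, 136 and 128 CPM (1.69), with 2.23 on 1/2 MS.

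In the lists of auxin genes more members were called lower than higher. Among the Aux/IAA repressors of auxin signalling, 12 of 29 tested were lower (41.4%, against 13.6% of all genes) and 3 higher. The pattern for this family also took in MP, an auxin response factor with an IAA synonym, which is among the 3. On 1/2 MS 14 of the 29 were lower, where 10.1% of all genes were, and 0 higher. The median was -0.29 there and -0.16 under NaCl, and the interaction was positive in 6 genes and negative in 1. IAA29 was at 4.89, 3.67 and 3.77 CPM against 0.826, 1.15 and 1.11 CPM (-1.99 ± 0.19). IAA7 differed by -0.66, against -0.96 on 1/2 MS, with a positive interaction. Among the SAUR genes, small auxin-induced regulators of cell expansion, 23 of 61 were lower (37.7%) and 6 higher (9.84%), the latter 3 without wild-type replicate 3 or any 1 of the exa1-1 libraries. Of 11 auxin transport genes 5 were lower (45.5%, against 13.6% of all genes) and 0 higher. The lower count was 3 without wild-type replicate 2 or exa1-1 replicate 3, and 1 was higher without wild-type replicate 2. PIN3 and PIN7, auxin exporters, differed by -0.81 and -0.74. HB-2 and PIL1, shade-responsive factors, differed by -1.18 and -1.45. The differences of IAA29, PIN3, PIN7, HB-2 and PIL1 on 1/2 MS lay between -2.41 and -0.64, and none of these genes had an interaction. In the list of light signalling to which HB-2 and PIL1 belong, 3 of 13 genes were higher and 3 lower. That is 23.1% each way, beside 15.9% and 13.6% of all genes, and the higher count was 1 without exa1-1 replicate 2. Wall-loosening genes gave mixed counts. Of 17 alpha-expansins 4 were higher and 3 lower, and the higher count was 1 without wild-type replicate 3 or exa1-1 replicate 1 or 2 and 2 without exa1-1 replicate 3. Of 30 XTH wall enzymes, which cut and rejoin xyloglucan, 2 were higher (6.67%) and 7 lower (23.3%).

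Of the cell cycle lists, that of DNA replication was lower by small differences, with a median of -0.27. Of 13 DNA replication genes 6 were lower (46.2%, against 13.6% of all genes) and 0 higher, among them MCM2 and PRL (MCM7), subunits of the replicative helicase, at -0.30 and -0.46. None of the 13 was called on 1/2 MS, and 6 had a negative interaction, where 5.16% of all genes did. Of 15 mitosis genes 2 were lower, 13.3% and so near the share of all genes, and 0 were higher. The list of 19 clock genes had 5 higher members (26.3%, against 15.9% of all genes) and 2 lower ones (10.5%, against 13.6%). The lower count was 4 under either other filter, within the NaCl libraries alone, without exa1-1 replicate 1 and without most of the 1/2 MS libraries. GI, a day-length regulator, had a mean of 25.9 ± 2.1 CPM against 44.0 ± 8.31 CPM (SD, n = 3 each, log2 difference 0.77 ± 0.17), against -0.29 on 1/2 MS.

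Wall proteins of roots gave large ratios at low levels. Of 6 extensins 4 were higher (66.7%), and of 11 root hair wall genes 3 were higher (27.3%) and 0 were lower. Over all genes 15.9% were higher. EXT6 had a mean of 0.311 ± 0.185 CPM against 1.35 ± 0.131 CPM (SD, n = 3 each, log2 difference 2.1 ± 0.46, adjusted p = 0.000589). PRP1, a proline-rich protein of root hairs, had a mean of 0.279 ± 0.155 CPM against 1.16 ± 0.391 CPM (2.05 ± 0.48), with 0.02 on 1/2 MS and an interaction. PRP3 differed by 1.27, and EXT4, the abundant member, by 0.35 from 210, 264 and 256 to 305, 308 and 315 CPM. On 1/2 MS all 6 extensins and 6 of the 11 root hair wall genes were called higher, where 8.14% of all genes were. EXT6, PRP3 and EXT4 were higher there by 0.82, 0.61 and 0.27. Of the 8 root markers given above, 0 were called higher on 1/2 MS.

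Genes of translation and mRNA turnover, the processes in which GYF-domain proteins are placed, gave small differences. Of 7 cap-binding and eIF4G genes 3 were higher (42.9%, above the 15.9% of all genes), by at most 0.17, and 0 were lower, while the lowest value of the list, -0.31, was not called. That count was 1 under most alternatives and 0 without exa1-1 replicate 2, and 1 was lower without replicate 1 of wild type under NaCl or replicate 3 on 1/2 MS. Of 9 eIF3 subunits 1 was higher, 2 without wild-type replicate 1 or 2 and 0 without exa1-1 replicate 3. Of 19 genes of mRNA decay and granules 3 were higher and 2 lower. The higher count was 1 without exa1-1 replicate 1, and the lower count was 1 without exa1-1 replicate 1 or wild-type replicate 3. In the eIF3 and decay lists the share called lay below the 29.5% of all genes.

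A few genes were all but absent from 1 genotype. By the rule that a group had at most 3 counts in all and the other at least 50, there were 3, each present in exa1-1. AT1G64795 (chr1:24082579-24082848, plus strand) had 2 counts over the 3 wild-type libraries and 3809 over the 3 exa1-1 libraries (1218 to 1328 each). The ratio was 1861, with a 95% interval of 515 to 15377 that covers counting error only. In the other conditions the exa1-1 libraries held 378 to 538 counts (1/2 MS), 1410 to 1626 (23 °C) and 441 to 494 (39 °C), and the wild-type libraries 0 to 3. The gene lies inside ILA (AT1G64790), which runs from 24064822 to 24083428 on the opposite strand and was not called (0.07). The strand setting of the counting is not given, so reads of ILA and of AT1G64795 cannot be told apart by strand. AT2G11405 (chromosome 2, 4543175 to 4543522) had 0 counts in wild type and 229 in exa1-1, at least 74.6-fold higher against a floor of 3 counts over the group. AT3G24514 (chromosome 3, 8937382 to 8938949) had 0 and 84 counts, at least 27.4-fold higher. All 3 encode uncharacterized proteins in the annotation. On the other side, AT1G26390, chosen after its values were seen as the largest decrease, was at 8.91, 11.2 and 9.74 CPM against 0.103, 0.448 and 0.353 CPM (-5.01 ± 0.45), with -3.65 on 1/2 MS.

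The genotype difference was set beside that of 6 other libraries, the unstressed ones on 1/2 MS, which share no sample with the NaCl libraries. There 3920 genes were called (18.3%). Under both conditions 1831 genes were called in the same direction, 837 higher and 994 lower, which is 29.0% of the NaCl calls and 46.7% of the 1/2 MS calls. A further 254 genes were called in opposite directions, 188 of them higher under NaCl and lower on 1/2 MS. Across the 21462 genes, which are not independent replicates, the log2 differences correlated at a Pearson r of 0.396 and a Spearman rho of 0.357. The interaction test called 2401 genes (11.2%). It called 1768 of the genes called under NaCl, and 1201 of the 4236 genes called under NaCl alone, so for most of those a difference between the conditions was not shown. Of the 361 genes lower by at least 1, 197 were also called lower on 1/2 MS and 132 had an interaction. Of the 136 higher by at least 1, 46 were also called higher on 1/2 MS and 25 had an interaction. Over all genes 10.1% were called lower and 8.14% higher on 1/2 MS.

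**Figure D5:**
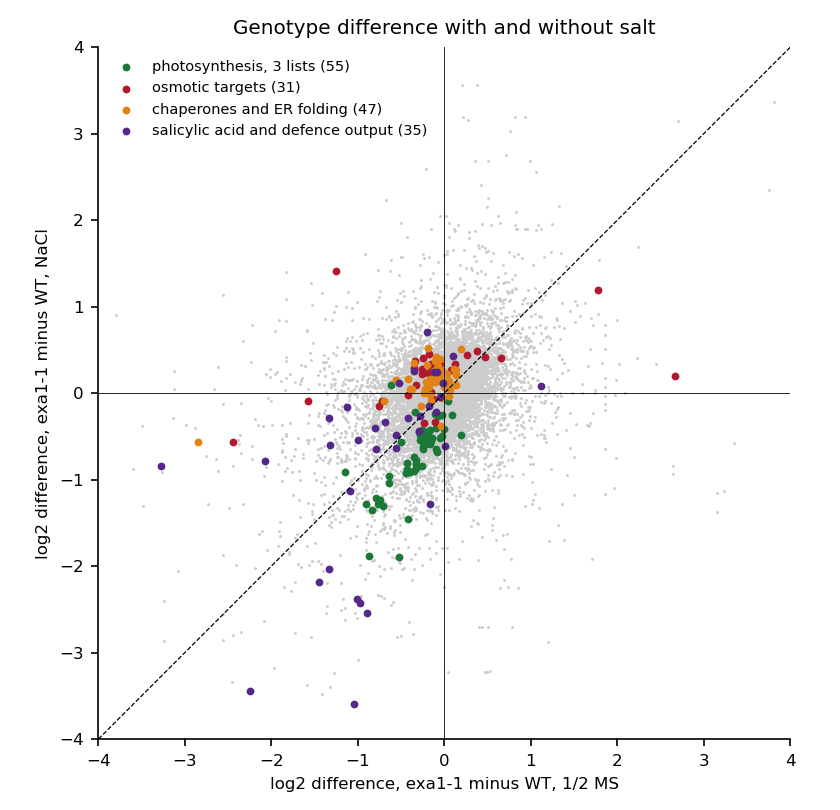
Log2 difference between exa1-1 and wild type under NaCl (vertical axis) against the same on 1/2 MS (horizontal axis), 1 point per gene, with a dashed line of equality and 19 genes outside the axes, which end at 4. Photosynthesis genes (55, green) lie mostly below the line in the lower left. Osmotic targets (31, red) and chaperones with ER folding genes (47, orange) lie mostly above the line.

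The heat series gave overlaps of like size, with 19.4% of its genes called at 23 °C and 24.4% at 39 °C. Of the genes tested in both fits, 1617 were called in the same direction under NaCl and at 23 °C (26.2% of the NaCl calls and 40% of the others) and 254 in opposite directions. At 39 °C, 1626 were called in the same direction (26.3% and 32.0%) and 443 in opposite directions. The correlations across the 20628 genes were 0.38 and 0.291 (Pearson). Among the decreases of at least 1, 48 were also called lower in all 3 other conditions, and among the increases 19 were called higher in all 3. Only 321 of the 361 decreases and 102 of the 136 increases were tested in the heat series.

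Some genes turned direction with salt. PRX52, a peroxidase of lignin formation, was at 5.38, 5.88 and 6.83 CPM against 9.09, 13.3 and 10.1 CPM under NaCl (0.85 ± 0.19), and differed by -1.92 on 1/2 MS. AT3G61400 had a mean of 16.8 ± 0.76 CPM against 3.57 ± 0.981 CPM (SD, n = 3 each, log2 difference -2.24 ± 0.21), against 0.73 on 1/2 MS. AT3G28220 was at 13.5, 9.54 and 11.8 CPM against 6.35, 4.03 and 5.90 CPM (-1.09 ± 0.25), against 1.96. The late embryogenesis genes GEA6 and LEA7, whose products protect drying cells, were higher under NaCl by 1.01 and 0.61. On 1/2 MS they were near absence, with 8 counts in wild type against 0 in exa1-1 for GEA6 and 17 against 3 for LEA7.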

How the data were processed

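RNA sequencing libraries from whole seedlings were analysed, 3 per group. The deposited gene counts are whole numbers with no normalization, which the authors made with HISAT2 2.0.4 (alignment) and HTSeq 0.6.1p1 (counting) on TAIR10, per the submitters' processing notes. The FPKM values, fragments scaled to transcript length and library size, are also as deposited by the authors. The sources used here do not give the counting mode, the strand setting or the tool behind the FPKM.

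Counts of the 12 libraries of the salt series were fitted with edgeR 4.0.16 (R 4.3.3; TMM scaling, filterByExpr, group means, quasi-likelihood F test, Benjamini-Hochberg adjustment over all genes tested), and the heat series was fitted separately. Log2 differences are edgeR's. Standard errors come from log2 CPM with a prior count of 2. DESeq2 1.42.0, limma 3.58.1 on log2(FPKM + 1), other scalings and filters, the replicate number as a block and leaving out each library were the alternatives. The p-values measure the spread between the deposited libraries. Promoters and coordinates came from RefSeq's TAIR10.1 and were read with Python 3.11.15.

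Named genes could be EXA1 and its neighbours, the largest differences with no overlap between the groups, the largest interactions, the largest changes in CPM, genes with opposite calls and up to 5 members per list. The members, lists and rules were chosen with earlier results of these data known.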

Additional observations from a re-analysis of the deposited data

Results flagged for a closer look

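In 67 of the 117 genes looked up for the text, the genotype difference under NaCl differed from that on 1/2 MS by edgeR's interaction test (adjusted p under 0.05), 29 in the positive and 38 in the negative direction. The test also called GEA6 and LEA7 (adjusted p = 0.00808 and 0.0187), which are not among the 67 because exa1-1 on 1/2 MS held at most 3 counts of each in all. The values below are the difference under NaCl minus the difference on 1/2 MS, on the log2 scale. Across all genes 11.2% had such a call, and many of these genes were picked for a large difference, so the count is a description.

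Photosynthesis genes had negative values. They were -0.59 for RBCS1A, -1.02 for RBCS1B, -0.51 for RBCS2B, -0.48 for RBCS3B, -0.40 for RCA, -0.52 for PRK, -0.44 for GAPA and -1.23 for CP12-2. CA1 had -0.60, CAB2 -1.37, CAB3 -0.49, LHCB3 -0.42, LHCB4.3 -1.04, NPQ4 -0.52, PSBX -0.55, PSBR -0.45 and NdhM -1.18, and GLU1 had -0.31.

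Osmotic and ABA genes were mostly positive, with 0.49 for COR47, 0.65 for ERD10, 0.46 for P5CS2, 1.65 for NCED3, 1.01 for CYP707A1, 0.74 for ABI1 and 0.45 for GORK, while RCAR3 had -0.52. Aquaporins had 0.79 (GAMMA-TIP), 1.33 (TIP2_2), 0.51 (PIP1_4) and 0.77 (PIP1A). Folding genes had 0.70 (HSP70), 0.71 (Hop3), 0.51 (BIP1), 0.48 (BIP2) and 0.44 (CRT1a), and HSFA2, a factor, had 0.60.

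In the defence lists positive and negative values both occurred over all members, and the genes described here had -2.56 for ACD6, -1.37 for FMO1, -1.11 for SARD1, -1.51 for ECS1, -0.40 for RPP8 and -0.31 for SNC1. Glucosinolate genes had -0.39 (MAM1), -1.03 (IPMI1), -0.48 (CYP83A1) and -0.46 (MYB28). The defensins PDF1.3 and PDF1.2 had -1.43 and -2.0, since their difference was larger on 1/2 MS, where wild type held few counts. In the jasmonate pathway the values were 2.21 for CYP94B3, -1.52 for LOX2 and -0.86 for JAZ7.

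Single genes of polyamine and phenylpropanoid metabolism had 0.84 (ADC2), 2.58 (NATA1), 0.88 (AACT1) and 0.80 (CAD5), and 2 other metabolic genes had 0.86 (NIC3) and 0.29 (ATMS1). The remaining genes were IAA7 with 0.30, GI with 1.06, MCM2 with -0.38, PRL with -0.43, PRX52 with 2.76, AT3G61400 with -2.97 and AT3G28220 with -3.05. The root genes PYK10, PRP1 and PHO1 had 0.31, 2.03 and -0.40.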

How the results depend on the processing

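The count of genes called under NaCl was 6321 and ranged from 5462 (DESeq2) to 6277 under the other tools, scalings and filters, and from 4727 to 6243 when 1 library was left out. The count of genes differing by at least 1 (497) was 155 with log2(FPKM + 1), where the added 1 shrinks the differences of low genes, and 473 to 530 when 1 library was left out, of which 408 to 488 were among the 497. The interaction count (2401) was 1826 to 2452 and the 1/2 MS count (3920) 2689 to 4285 with 1 library left out. Of 113 called genes named, 107 stayed called in the same direction under all 21 alternatives. The others were AT5G42930, CASP1 and PHO1, which 1 library each decided, CRA1, which lost its call without single NaCl libraries and with FPKM, and NCED3 and LEA7, which were not called with log2(FPKM + 0.1) (0.49, adjusted p = 0.0686 and 0.60, adjusted p = 0.258, limma). AT5G42940, not called, was called with a stricter filter (-0.13) and without some of the 1/2 MS libraries. The cause was not tested. No named gene reversed.

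Under NaCl, same-numbered libraries of the genotypes did not deviate together (correlations of 0.00187, 0.0342 and -0.00591), so the numbers were not taken as pairs. The 1/2 MS libraries were not checked in this way. There PR1, for example, was highest in replicate 2 of both genotypes. It was at 50.8, 78.1 and 37.3 CPM in wild type and at 10.2, 34.2 and 15.6 CPM in exa1-1. With the replicate block 6149 genes were called under NaCl, 497 by at least 1, 2335 in the interaction and 3710 on 1/2 MS.

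Depth limits genes near 1 CPM, such as PRP1 and EXT6, where a few counts decide the ratio.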
